A study of Mus musculus with 6 samples.

Results

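The genes described here are the ABC transporters (families Abca to Abcg) and 4 families of organic ion carriers (Slco, Slc10a, Slc22a and Slc47a), measured by mRNA sequencing in mouse liver. They were chosen by symbol, with earlier results of these data known, and 100 of the 22274 genes in the table matched. The samples were livers of C57 mice that had received an adenovirus. In 3 samples the virus was Ad-Dyrk1b, which carries mouse Dyrk1b, a protein kinase gene, and in 3 it was the control virus Ad-EGFP. Every sample therefore came from infected liver, and no uninfected liver was compared. The labels give no age, sex, virus dose, time after infection or promoter. Separate mice per sample are not stated either. A p-value here weighs the difference between groups only against the spread of samples within groups, and that spread may be technical.

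Hepatocytes face blood on their sinusoidal (basolateral) side and bile on their canalicular side. Carriers of the Slc10a, Slco and Slc22a families bring bile acids, organic anions and organic cations in from blood, while ATP-driven pumps of the ABC family and the cation exchanger Slc47a1 export bile acids, phospholipid, sterols and drugs into bile. A further group of ABC pumps on the sinusoidal side returns conjugates to blood, and other ABC proteins serve peroxisomes, mitochondria or ribosomes rather than the cell surface. The transporters were sorted by these textbook locations into sinusoidal uptake (9 genes), canalicular export (9), basolateral export (6), intracellular ABC (9), soluble ABC (4), other ABC (23) and other organic ion carriers (40).

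Total counts ranged from 17326516 to 20024888 per library. Dyrk1b itself stood at 62.2, 101 and 96.5 FPKM (fragments scaled to gene length and library depth) in Ad-Dyrk1b libraries 1 to 3 and at 3.81, 4.97 and 4.16 in Ad-EGFP libraries 1 to 3, which fits the labels of all 6. The 10 hepatocyte markers were all detected in every library, with summed CPM (counts scaled to a common library total) of 62794 to 77541 in Ad-Dyrk1b and 77850 to 81395 in Ad-EGFP, and 1 of the 10 (Hpd) was called, as higher. Most of that sum came from Alb, whose FPKM overlapped between the groups. The 8 cholangiocyte markers summed to 705 to 752 CPM against 473 to 608, with 1 called (Spp1, higher). Spp1 and Tm4sf4 made up most of that sum, and Tm4sf4 overlapped between the groups in FPKM. The 8 T and NK cell markers summed to 31.2 to 43.9 CPM against 19.9 to 28.0, with 1 of 7 tested called (Gzmb, higher). Gzmb was also the highest of that list in every library, at 10.3 to 13.2 FPKM against 5.35 to 5.85. The 6 erythroid markers summed to 886 to 3694 CPM against 528 to 875, with the highest value in Ad-Dyrk1b library 3, and 0 were called by edgeR, DESeq2 or limma-voom or passed an unadjusted p under 0.05 in edgeR. Endothelial, Kupffer cell and stellate cell sums overlapped between the groups, with 1 called (Cd68, a macrophage marker, higher). The calls of Hpd (adjusted p up to 0.0768) and Cd68 (up to 0.119) were lost in some fits that left out 1 library, those of Spp1 and Gzmb in none. These 4 markers, Alb and Tm4sf4 are named after their values were seen. No marker was at 0 in any library. Over all tested genes edgeR called 7.36% as higher and 4.81% as lower at an adjusted p under 0.05. At an unadjusted p under 0.05 these shares were 14.9% and 13.5%. Whether these differences in markers took part in the differences of transporters below was not tested. In whole liver RNA, fewer cells of a type and less RNA per cell cannot be told apart.

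Of the 100 transporters, 67 had enough counts to be tested. The other 33 did not pass the filter, 11 of them without a count in any library, and none of the 33 exceeded 0.51 FPKM or 20 counts in a library. By edgeR's quasi-likelihood test, with p adjusted over all 13201 tested genes and a threshold of 0.05, 18 of the 67 tested transporters (26.9%) were higher with Ad-Dyrk1b and 4 (5.97%) were lower. Among all tested genes 12.2% were called, 7.36% as higher and 4.81% as lower. Higher calls made up 60.5% of all calls in this test, against 44.3% with limma on log2(FPKM + 1) and 44.0% with limma on log2(FPKM + 0.1). The median log2 fold change, always Ad-Dyrk1b over Ad-EGFP, was 0.29 over the 67 transporters and -0.00498 over all tested genes. The FPKM values of the groups did not overlap for 21 transporters that were above in Ad-Dyrk1b and 10 that were below. Over all tested genes such separation occurred in 10.9% above and in 21.9% below. By class, uptake, canalicular and basolateral genes had 10 of the 18 higher calls and none of the 4 lower ones, although the difference between classes was not tested. Of the 22 calls, 11 held whichever 1 of the 6 libraries was left out. The count of higher transporters fell to 9 without Ad-Dyrk1b library 2 and to 11 without Ad-EGFP library 1, and that of lower ones to 2 without Ad-Dyrk1b library 1 or Ad-EGFP library 2.

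**Figure D1:**
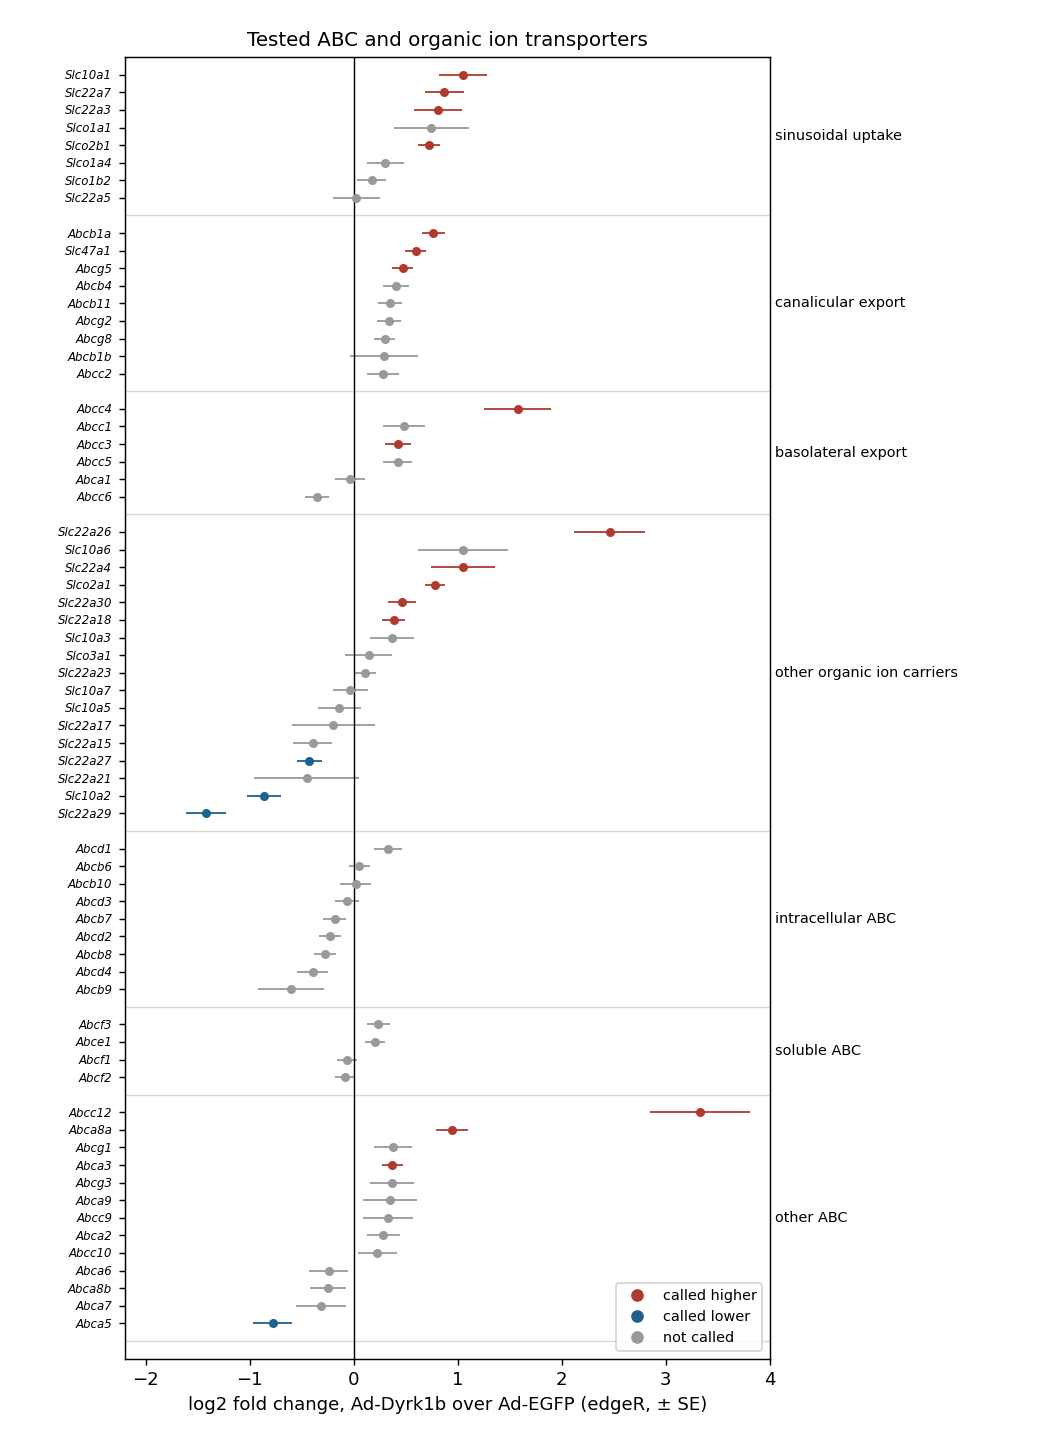
Log2 fold change (horizontal axis, Ad-Dyrk1b over Ad-EGFP, edgeR) of 66 of the 67 tested transporters, 1 per line and grouped by class. Points are estimates, bars are standard errors, and colour shows calls at an adjusted p under 0.05. The 8 uptake genes drawn and the 9 canalicular genes all lie above 0, from 0.03 to 1.05 and from 0.28 to 0.77, while 6 of the 9 intracellular ABC genes lie below 0.

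Of the 9 sinusoidal uptake genes 5 rose with Ad-Dyrk1b, among them the bile acid carrier Slc10a1, the organic cation carrier Slc22a3 and the organic anion carriers Slc22a7 and Slco2b1. Over all tested genes 7.36% were called higher. The median log2 fold change of the 9 was 0.75. All 9 were above 0 in the edgeR fit, although Slc22a5 was below 0 on both FPKM scales. Their FPKM summed to 416, 429 and 553 in the Ad-Dyrk1b libraries and 315, 344 and 323 in the Ad-EGFP libraries. The class had 2 calls without Ad-Dyrk1b library 2 and 3 without Ad-EGFP library 2 or 3.

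Slc10a1 (ENSMUSG00000021135, chr12:80953183-80968705, minus strand) encodes the sodium-dependent carrier that takes up conjugated bile acids from portal blood. It stood at 114, 144 and 208 FPKM with Ad-Dyrk1b and at 88.4, 70.1 and 80.2 with Ad-EGFP. The groups did not overlap, and library 3 of Ad-Dyrk1b, the one with the highest erythroid markers, was also the highest here. The log2 fold change was 1.05 ± 0.23 (SE, adjusted p = 0.0224, edgeR). It was 0.78 with an adjusted p of 0.01 without that library. The call was lost without Ad-Dyrk1b library 2 (adjusted p = 0.0681), Ad-EGFP library 2 (0.0862) or Ad-EGFP library 3 (0.0724). Slc10a1 made up 32.8% ± 5.17 (SD, n = 3) of the summed uptake FPKM with Ad-Dyrk1b and 24.4% ± 3.89 (SD, n = 3) with Ad-EGFP.

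Slco2b1 (ENSMUSG00000030737, chr7:99657804-99711340, minus strand), a carrier of steroid conjugates, stood at 32.0, 32.0 and 36.7 FPKM against 21.3, 23.0 and 19.1. The groups were apart, and the log2 fold change was 0.73 ± 0.11 (adjusted p = 0.00103, edgeR). The Slco2b1 call held in all 6 fits that left out 1 library.

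Slc22a7, which carries organic anions and is also abundant in kidney, stood at 5.83, 6.33 and 5.71 FPKM with Ad-Dyrk1b and 4.10, 2.84 and 4.41 with Ad-EGFP. The groups did not overlap. Its log2 fold change was 0.87 ± 0.19 (adjusted p = 0.0104, edgeR), and the call was lost without Ad-Dyrk1b library 2 (0.0502). Slc22a3, a carrier of organic cations, was low, at 2.34, 1.75 and 1.39 FPKM against 1.23, 0.90 and 1.14. Its groups were apart, with a log2 fold change of 0.81 ± 0.23 (adjusted p = 0.0404, edgeR). That call held only when Ad-Dyrk1b library 3 was the one left out, with adjusted p of 0.0254 to 0.159 over the 6 fits, and it was lost with limma on log2(FPKM + 1) (0.0941) and log2(FPKM + 0.1) (0.0981). Slc22a3 overlaps Plg, an abundant liver gene on the other strand, and no strand setting is stated for the counting, so reads of Plg could have been counted for it.

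The remaining 4 uptake genes did not pass the test. Slco1b2, the main liver organic anion carrier of mice, stood at 120 ± 18.4 FPKM with Ad-Dyrk1b and 113 ± 14.5 with Ad-EGFP (SD, n = 3), a log2 fold change of 0.17 ± 0.14 (adjusted p = 0.434, edgeR). Slco1a4 and Slco1a1, with coding sequences 86.7% identical to each other, had log2 fold changes of 0.31 ± 0.18 (adjusted p = 0.288, edgeR) and 0.75 ± 0.36 (0.201). Slco1a1 lay between 0.43 and 1.49 FPKM in the 6 libraries, with 28 to 106 counts. The carnitine carrier Slc22a5 had a log2 fold change of 0.03 ± 0.23 (adjusted p = 0.951, edgeR). All 4 had overlapping groups. In mean FPKM the 8 described genes of the class stood with Ad-EGFP in the order Slco1b2, Slc10a1, Slco1a4, Slco2b1, Slc22a5, Slc22a7, Slc22a3 and Slco1a1. With Ad-Dyrk1b Slc10a1 came first and Slco1b2 second, but their libraries overlapped in level (114 to 208 and 108 to 141 FPKM).

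**Figure D2:**
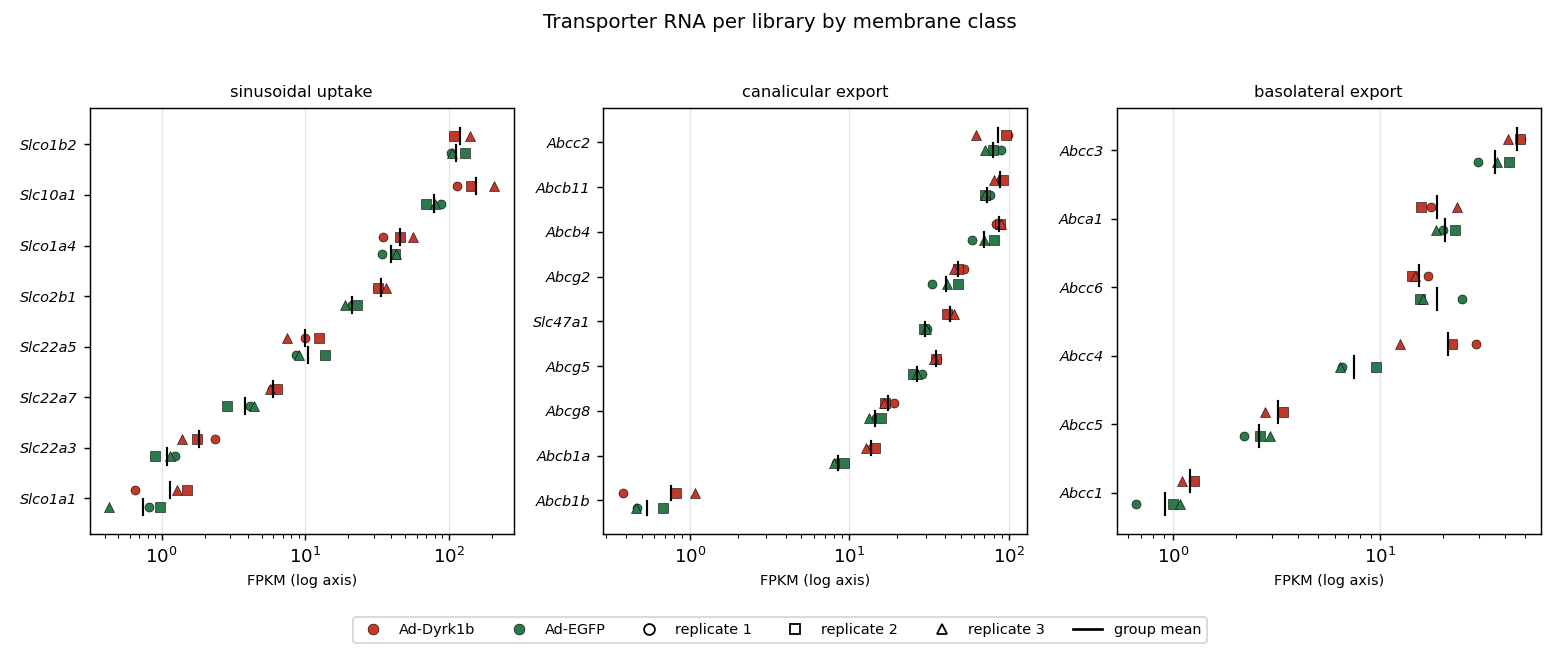
FPKM (horizontal log axis) of 8 sinusoidal uptake genes and the canalicular and basolateral export genes in every library. Colours are groups, symbols are replicates and vertical ticks are group means. Slco2b1 is apart between the groups, Slco1b2 overlaps, and Abcc4 spans 12.4 to 29.0 FPKM within the Ad-Dyrk1b group against 6.40 to 9.49 in the Ad-EGFP group.

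Promoter sequence is shown for Slc10a1 and Slc22a26, the called transporter of the uptake class with the highest level and the called carrier with the largest rise (described below), because both held the same motif among the 9 searched. The windows come from a RefSeq promoter table (build GRCm38.p6, mm10) that reaches 250 bases before to 50 after each start. It held windows for 78 of the 100 transporters and 18 of the 22 called ones. Slc10a1 is at chr12:80968706-80968955 and Slc22a26 at chr19:7802668-7802917, both on the minus strand and both the 250 bases before the start. Capitals mark TTCNNNGAA, the form bound by STAT proteins, searched on both strands, and it overlapped no other motif searched in these windows.
Slc10a1 promoter: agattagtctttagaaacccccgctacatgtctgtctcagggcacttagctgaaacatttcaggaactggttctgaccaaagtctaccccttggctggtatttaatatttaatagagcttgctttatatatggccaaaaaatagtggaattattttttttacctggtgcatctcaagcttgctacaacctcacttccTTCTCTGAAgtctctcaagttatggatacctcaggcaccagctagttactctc
Slc22a26 promoter: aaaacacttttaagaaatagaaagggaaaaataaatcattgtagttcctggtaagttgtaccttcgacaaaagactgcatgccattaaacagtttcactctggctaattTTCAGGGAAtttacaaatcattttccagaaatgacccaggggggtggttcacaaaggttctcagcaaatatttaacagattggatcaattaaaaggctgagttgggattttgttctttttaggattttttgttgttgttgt
Counted by gene, with any window of the gene, TTCNNNGAA was found in 9.55% of all 27025 genes in the table (8.30% of the 32851 windows of 300 bases) and in 10 of the 78 transporters. It was found in 4 of the 14 higher transporters with a window (Slco2b1, Slc10a1, Abcc4 and Slc22a26) and in 0 of the 4 lower ones. The other 8 forms were in 0 to 5 of the 14, the most frequent being AGTTCA (5 of 14, and 15.7% of all genes), so the form shown was not the most frequent one. Of the 4 lower ones, 2 (Slc10a2 and Slc22a29) held the HNF1 half-site GTTAAT, against 0 of the 14 higher ones and 8.24% of all genes. Every other form was in 0 or 1 of the 4. No test was made of any of these counts. A match is a string of letters, and no binding was measured.

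Of the 9 canalicular export genes 3 rose with Ad-Dyrk1b: the drug pump Abcb1a, the cation exchanger Slc47a1 and the sterol transporter subunit Abcg5. The other 6 had positive log2 fold changes too, and the median of the 9 was 0.35. Over all tested genes 7.36% were called higher. At an unadjusted p under 0.05 there were 7 of 9 (14.9% of all tested genes were higher by that rule), while DESeq2 called 5, limma-voom called 4 and edgeR without Ad-EGFP library 2 called 5. The summed FPKM of the class was 417 ± 26.5 with Ad-Dyrk1b and 343 ± 15.3 with Ad-EGFP (SD, n = 3), and the groups did not overlap.

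Abcb1a (ENSMUSG00000040584, chr5:8660077-8748575, plus strand), a P-glycoprotein that pumps hydrophobic drugs into bile, stood at 13.9, 14.5 and 12.6 FPKM with Ad-Dyrk1b. In the Ad-EGFP libraries it stood at 8.25, 9.31 and 8.05, below all of those. The log2 fold change was 0.77 ± 0.11 (adjusted p = 0.000764, edgeR). Its paralog Abcb1b was 0.38 to 1.08 FPKM in all 6 libraries, with overlapping groups and a log2 fold change of 0.29 ± 0.33 (adjusted p = 0.596, edgeR). The coding sequences of the 2 are 87.98% identical, and 18.6% of the 50-base windows of Abcb1a occur in another gene, so reads could have been split between them. Their summed FPKM was 14.5 ± 0.835 against 9.07 ± 0.801 (SD, n = 3).

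Slc47a1 (ENSMUSG00000010122, chr11:61343401-61378345, minus strand), which exchanges organic cations for protons, stood at 41.8, 40.7 and 45.0 FPKM with Ad-Dyrk1b and 30.5, 29.2 and 30.2 with Ad-EGFP. The groups were apart, with a log2 fold change of 0.60 ± 0.10 (adjusted p = 0.00236, edgeR). Calls of Abcb1a, Slc47a1 and Abcg5 held in all 6 fits that left out 1 library.

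Abcg5 (ENSMUSG00000040505, chr17:84658234-84683011, minus strand) and Abcg8 (plus strand) encode the subunits of the sterol exporter and lie side by side on opposite strands. Abcg5 stood between 34.1 and 35.2 FPKM with Ad-Dyrk1b and between 25.1 and 28.4 with Ad-EGFP (adjusted p = 0.00918, edgeR), so the groups were apart. Abcg8 stood at 19.1, 16.8 and 16.4 FPKM against 14.7, 15.7 and 13.3, with a log2 fold change of 0.30 ± 0.10 that was not called (adjusted p = 0.0761, edgeR), although its groups were apart too. The annotated spans of the genes overlap, and without a stated strand their reads in the shared part cannot be told apart. Abcg8 has 2 start sites in the RefSeq table. The segment shown (chr17:84683012-84683120, GRCm38.p6, plus strand) runs from the start of Abcg5 to the downstream start of Abcg8, so it lies before both of these starts but within Abcg8 as transcribed from its upstream start. It is shown because it separates these starts of the 2 subunit genes. Capitals mark AGATAA, the form bound by GATA factors, which reads TTATCT on this strand and occurs in 11.2% of all promoter windows on either strand.
Abcg5 to Abcg8 segment: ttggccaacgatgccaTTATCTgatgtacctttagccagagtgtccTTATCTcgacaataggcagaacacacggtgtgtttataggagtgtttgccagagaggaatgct

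The bile salt export pump Abcb11 and the phospholipid floppase Abcb4 lay just beyond the threshold. Abcb11 stood at 89.2, 91.9 and 80.9 FPKM with Ad-Dyrk1b and 76.4, 71.1 and 70.3 with Ad-EGFP, groups that did not overlap, with a log2 fold change of 0.35 ± 0.11 (adjusted p = 0.0593, edgeR). DESeq2 called it (adjusted p = 0.0192). Abcb4 stood at 82.8, 88.4 and 89.5 FPKM against 58.3, 81.1 and 69.4. Those groups were apart as well, with a log2 fold change of 0.41 ± 0.13 (adjusted p = 0.0529, edgeR). Abcb4 was called by DESeq2 (0.0171), by limma-voom (0.0494), by edgeR without the low-count filter (0.041) and by edgeR without Ad-EGFP library 2 (0.0283). In the authors' deposited table both genes had an adjusted p under 0.05. The urate and drug pump Abcg2 had a log2 fold change of 0.34 ± 0.12 (adjusted p = 0.0772, edgeR, and 0.0367 without Ad-EGFP library 2). The conjugate pump Abcc2 had overlapping groups, 61.7 to 98.2 FPKM against 70.8 to 89.7, and a log2 fold change of 0.28 ± 0.16 (adjusted p = 0.26, edgeR).

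Of the 6 basolateral export genes 2, Abcc4 and Abcc3, rose with Ad-Dyrk1b, and neither call held in every fit with 1 library left out. Both pumps return bile acids and conjugates from the hepatocyte to blood. Over all tested genes 7.36% were called higher. The class had a median log2 fold change of 0.43, with 4 genes above 0 and 2 below, and Abca1 crossed 0 in 3 of the fits that left out 1 library. No gene of the class was called higher without Ad-Dyrk1b library 1 or 2 or Ad-EGFP library 1 or 3, and 1 was without Ad-EGFP library 2. Its summed FPKM was 105 ± 10.2 with Ad-Dyrk1b and 86.1 ± 6.32 with Ad-EGFP (SD, n = 3).

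Abcc4 (ENSMUSG00000032849, chr14:118482692-118706219, minus strand) stood at 29.0, 22.1 and 12.4 FPKM with Ad-Dyrk1b and at 6.49, 9.49 and 6.40 with Ad-EGFP. The groups were apart, but library 3 of Ad-Dyrk1b was much nearer to the control libraries than the other two. The log2 fold change was 1.58 ± 0.32 (adjusted p = 0.0295, edgeR). Without that library it was 1.84 with an adjusted p of 0.000106, and without any of the others the call was lost, at 0.0562 (Ad-Dyrk1b library 1), 0.0998 (Ad-Dyrk1b 2), 0.134 (Ad-EGFP 1), 0.0532 (Ad-EGFP 2) and 0.0787 (Ad-EGFP 3). The call was also lost without the low-count filter (0.0776), while DESeq2 gave an adjusted p of 0.000652. The bile acid carrier Slc10a1 had the opposite order among the same Ad-Dyrk1b libraries, highest in library 3 and lowest in library 1.

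Abcc3 stood at 47.9, 47.3 and 41.4 FPKM with Ad-Dyrk1b and 29.4, 41.9 and 36.5 with Ad-EGFP, so library 3 of the first group lay just below library 2 of the second. Its log2 fold change was 0.43 ± 0.13 (adjusted p = 0.045, edgeR). The call was lost without Ad-Dyrk1b library 1 (0.0934) or 2 (0.138), without Ad-EGFP library 1 (0.177) or 3 (0.105), and with limma on log2(FPKM + 1) (0.138). Abcc1 and Abcc5, pumps of glutathione conjugates and of cyclic nucleotides, had log2 fold changes of 0.49 ± 0.20 (adjusted p = 0.135, edgeR) and 0.42 ± 0.14 (0.0698). Abcc6, the pump mutated in a disorder of soft-tissue calcification, had -0.35 ± 0.12 (adjusted p = 0.0668, edgeR) and was called lower without Ad-EGFP library 3 (0.0474). The cholesterol exporter Abca1 had -0.03 ± 0.15 (adjusted p = 0.905, edgeR), with 15.7 to 23.4 FPKM against 18.6 to 22.8.

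Among the 40 other organic ion carriers, 17 were tested, of which 5 rose and 3 fell. Their median log2 fold change was 0.11. Over all tested genes 7.36% were called higher and 4.81% lower. The carriers that moved most, Slc22a26 and Slc22a29, lie in the Slc22a cluster of chromosome 19 and moved in opposite directions. The cluster encodes organic anion carriers of rodent liver and kidney, and other members lie between these genes.

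Slc22a26 (ENSMUSG00000053303, chr19:7781041-7802667, minus strand) stood at 3.41, 3.61 and 6.07 FPKM with Ad-Dyrk1b and at 1.26, 0.65 and 0.59 with Ad-EGFP. These were 168 to 280 counts against 27 to 58, with no overlap. The log2 fold change was 2.46 ± 0.34 (adjusted p = 0.00163, edgeR). On the log2(FPKM + 1) scale, which understates the change of low genes, it was 1.53. Slc22a29 (ENSMUSG00000075044, chr19:8160165-8218900, minus strand) went the other way, from 8.35, 7.17 and 9.20 FPKM with Ad-EGFP to 2.17, 3.28 and 3.23 with Ad-Dyrk1b. Its groups were far apart, with a log2 fold change of -1.42 ± 0.19 (adjusted p = 0.000673, edgeR). Both calls held in all 6 fits that left out 1 library.

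Slc22a27, the most abundant gene of the cluster, fell from 24.7, 25.4 and 22.3 FPKM to 17.2, 14.9 and 19.8, without overlap. Its log2 fold change was -0.42 ± 0.12 (adjusted p = 0.0364, edgeR), and the call was lost without Ad-Dyrk1b library 1 (0.11) or 2 (0.126) and without Ad-EGFP library 1 (0.113) or 2 (0.0837). Slc22a30 rose from 6.97, 8.71 and 6.69 FPKM to 9.98, 10.3 and 9.01, also without overlap, with a log2 fold change of 0.47 ± 0.14 (adjusted p = 0.0404, edgeR). That call held only when Ad-EGFP library 2 was the one left out. It was lost without Ad-Dyrk1b library 1 (0.0777), 2 (0.141) or 3 (0.0565), without Ad-EGFP library 1 (0.108) or 3 (0.129), and with limma on log2(FPKM + 1) (0.0952). Slc22a28 was listed at 0 FPKM in all 6 libraries.

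Summed over Slc22a26 to Slc22a30, FPKM was 34.3 ± 3.28 with Ad-Dyrk1b and 40.7 ± 1.70 with Ad-EGFP (SD, n = 3), and it was lower in every Ad-Dyrk1b library than in any Ad-EGFP library. Slc22a26 was 12.5% ± 2.98 of this sum with Ad-Dyrk1b and 2.04% ± 0.874 with Ad-EGFP (SD, n = 3), and Slc22a29 was 8.44% ± 1.81 against 20.3% ± 3.33. The genes resemble each other, so how the reads were assigned bears on these values. The coding sequences of Slc22a27 and Slc22a29 are 97.3% identical, those of Slc22a28 and Slc22a30 98.8% and those of Slc22a29 and Slc22a30 92.4%, while Slc22a26 is about as distant from each (74.2% identical to Slc22a27). In Slc22a29, 29.8% of the 50-base windows occur in another gene, mostly Slc22a27, in Slc22a30 34.3%, mostly Slc22a28, and in Slc22a26 6.21%. Summing the near-identical pair Slc22a27 and Slc22a29 gave 20.2 ± 2.52 FPKM against 32.4 ± 0.831 (SD, n = 3), apart in the same direction as each alone.

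The sequences before Slc22a29 and Slc22a30 are shown because these neighbours moved in opposite directions although they share an upstream stretch. The stretch lies directly before the start of Slc22a29 (chr19:8218901-8219069) and 24 bases before that of Slc22a30 (chr19:8405130-8405298), both on the minus strand of GRCm38.p6, from the RefSeq promoter table. Of 168 aligned bases 149 are identical (88.7%). Slc22a28, listed at 0 FPKM, shares the stretch too, 97.5% identical to Slc22a30 and 86.9% to Slc22a29. For Slc22a27 and Slc22a29, which both fell, only 20 bases aligned. Any part of these sequences in the changes was not tested. Capitals mark the bases that differ between the Slc22a29 and Slc22a30 stretches, including those opposite a gap.
Slc22a29 upstream stretch: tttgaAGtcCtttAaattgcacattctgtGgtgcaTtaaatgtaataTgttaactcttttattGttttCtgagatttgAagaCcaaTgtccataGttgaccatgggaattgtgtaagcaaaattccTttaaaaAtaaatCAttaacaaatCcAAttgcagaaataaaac
Slc22a30 upstream stretch: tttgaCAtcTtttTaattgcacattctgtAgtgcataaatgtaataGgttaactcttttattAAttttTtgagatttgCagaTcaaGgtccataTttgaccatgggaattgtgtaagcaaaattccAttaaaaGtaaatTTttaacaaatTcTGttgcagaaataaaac

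**Figure D3:**
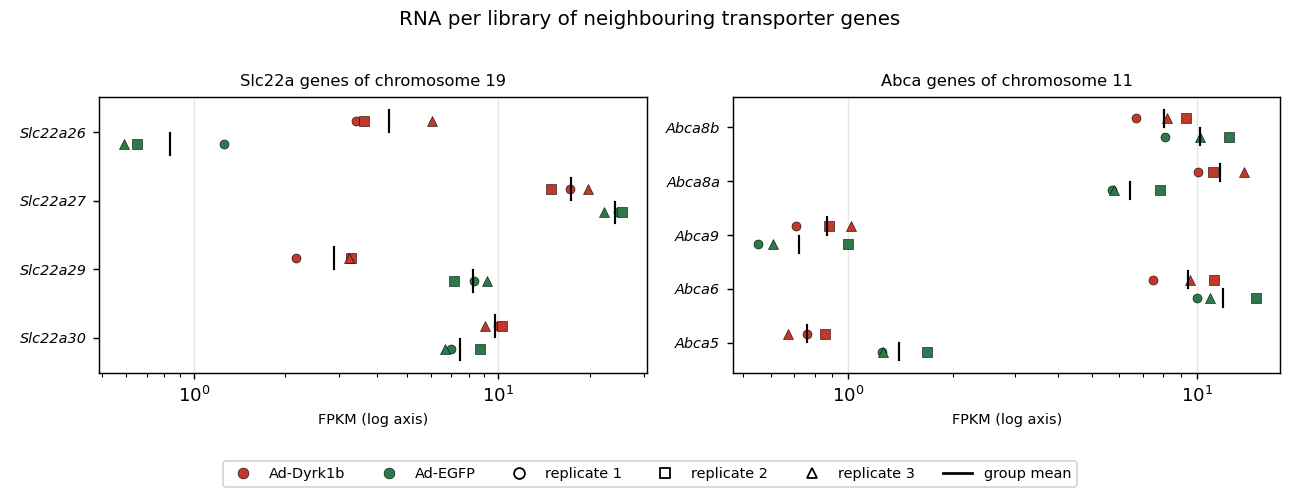
FPKM (horizontal log axis) per library of clustered transporter genes, the Slc22a cluster of chromosome 19 at left and the Abca cluster of chromosome 11 at right. Colours are groups, symbols are replicates and vertical ticks are group means. Slc22a26 and Slc22a30 are higher and Slc22a27 and Slc22a29 lower in every Ad-Dyrk1b library than in any Ad-EGFP library. Abca8a is higher and Abca5 lower in the same way, and the other 3 Abca genes overlap.

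Slc10a2 (ENSMUSG00000023073, chr8:5083219-5105351, minus strand) encodes the bile acid carrier best known from ileum and, in liver, from cholangiocytes. It fell from 32.0, 43.2 and 37.2 FPKM in the Ad-EGFP libraries to 18.5, 23.7 and 15.7 in the Ad-Dyrk1b libraries, without overlap. The log2 fold change was -0.86 ± 0.16 (adjusted p = 0.00707, edgeR), a direction opposite to that of Slc10a1, and it held in all 6 fits that left out 1 library. The 8 cholangiocyte markers summed to 705 to 752 CPM with Ad-Dyrk1b and 473 to 608 with Ad-EGFP. Of these 8, 7 had log2 fold changes above 0 and 1 (Epcam, -0.14) below, and Krt19 stood at 0.74 to 1.76 FPKM. Spp1 alone was called by edgeR, as higher, against 7.36% of all tested genes. Most of the sum came from Spp1 (212 to 292 FPKM against 133 to 165) and Tm4sf4 (206 to 253 against 178 to 235, overlapping). No other marker of the 8 exceeded 3.86 FPKM, so the sum mainly follows these genes. The part of cholangiocytes in the fall of Slc10a2 was not tested.

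Slco2a1 (ENSMUSG00000032548, chr9:102988712-103096002, plus strand), the prostaglandin carrier, stood at 9.91, 9.91 and 10.2 FPKM with Ad-Dyrk1b and 5.60, 6.61 and 6.36 with Ad-EGFP. The groups were narrow and apart, with a log2 fold change of 0.78 ± 0.10 (adjusted p = 0.000384, edgeR), the smallest among the transporters, and the call held in all 6 fits. In liver this carrier is known from endothelial cells. All 8 endothelial markers had log2 fold changes above 0, with a median of 0.40, and Lyve1 was at 0.83 ± 0.27 (adjusted p = 0.0952, edgeR, and 0.0016 with DESeq2). Of the 8, edgeR called 0, DESeq2 called 1 and limma-voom 0. At an unadjusted p under 0.05 in edgeR 3 of the 8 were higher, against 14.9% of all tested genes. The summed CPM of the 8 markers overlapped between the groups (185 to 269 against 131 to 207). The part of endothelial cells in the rise of Slco2a1 was not tested.

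Slc22a4, the ergothioneine carrier, stood at 1.36, 1.19 and 1.14 FPKM against 0.44, 0.58 and 0.87, apart, with a log2 fold change of 1.05 ± 0.31 (adjusted p = 0.0444, edgeR). That call held only when Ad-EGFP library 3 was the one left out (0.0363), and was lost without Ad-Dyrk1b library 1 (0.116), 2 (0.103) or 3 (0.0694) and without Ad-EGFP library 1 (0.133) or 2 (0.105). Slc22a18, an imprinted carrier gene and the most abundant of this class, stood at 54.9, 54.3 and 45.3 FPKM against 39.5, 39.1 and 46.6. Library 3 of each group made the groups overlap, and the log2 fold change was 0.38 ± 0.11 (adjusted p = 0.0459, edgeR). The call was lost without Ad-Dyrk1b library 1 (0.11) or 2 (0.153), without Ad-EGFP library 1 (0.131) or 2 (0.124), with limma-voom (0.0502) and with limma on log2(FPKM + 1) (0.144).

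Of the 23 other ABC genes 13 were tested, of which 3 rose and 1 fell. Their median log2 fold change was 0.33. Over all tested genes 7.36% were called higher and 4.81% lower. Abcc12 (ENSMUSG00000036872, chr8:86482260-86580686, minus strand), an ABC protein with no settled substrate, stood at 1.67, 1.59 and 0.61 FPKM with Ad-Dyrk1b and 0.15, 0.15 and 0.11 with Ad-EGFP. These levels rest on 101, 101 and 30 counts against 8, 9 and 5, so the gene was near the limit of detection in the control samples. Its log2 fold change, 3.33 ± 0.48 (adjusted p = 0.00116, edgeR), was the largest among the transporters and held in all 6 fits, while on the log2(FPKM + 1) scale it was 0.97.

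Abca8a (ENSMUSG00000041828, chr11:110025634-110095978, minus strand) belongs to a cluster of Abca genes on chromosome 11 whose products are tied to lipid transport. It stood at 10.1, 11.2 and 13.7 FPKM with Ad-Dyrk1b and 5.70, 7.84 and 5.79 with Ad-EGFP, without overlap. The log2 fold change was 0.94 ± 0.15 (adjusted p = 0.00278, edgeR) and the call held in all 6 fits. Abca5, in the same cluster but not adjacent to Abca8a, fell from 1.25, 1.68 and 1.26 FPKM to 0.76, 0.86 and 0.67, also without overlap. Its log2 fold change was -0.78 ± 0.18 (adjusted p = 0.0169, edgeR). The Abca5 call was lost without Ad-Dyrk1b library 1 (0.0562) or 3 (0.0528), without Ad-EGFP library 2 (0.0653) and with limma on log2(FPKM + 0.1) (0.0521). Abca6 in the same cluster was not called, with a log2 fold change of -0.24 ± 0.19 (adjusted p = 0.449, edgeR). Abca8b and Abca9, chosen for mention after their values were seen, had -0.24 ± 0.17 (adjusted p = 0.385, edgeR) and 0.35 ± 0.26 (0.4). Summed over the 5 genes FPKM was 30.8 ± 4.38 against 30.7 ± 6.22 (SD, n = 3), with overlapping groups. The coding sequences of Abca8a and Abca8b are 73.8% identical, and 1.81% of the 50-base windows of Abca8a occur in another gene.

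Abca3, a lipid transporter known from lung surfactant, stood at 13.9, 14.7 and 13.5 FPKM against 11.4, 11.7 and 11.4, apart, with a log2 fold change of 0.37 ± 0.10 (adjusted p = 0.0331, edgeR). The call held only when Ad-Dyrk1b library 1 was the one left out. It was lost without Ad-Dyrk1b library 2 (0.128) or 3 (0.052), without Ad-EGFP library 1 (0.0967), 2 (0.054) or 3 (0.0994), and with limma on log2(FPKM + 1) (0.108).

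No intracellular or soluble ABC gene was called. Among the 9 intracellular genes, of peroxisomes, mitochondria and other organelles, the median log2 fold change was -0.18. At an unadjusted p under 0.05 edgeR had 1 higher and 3 lower of the 9, against 14.9% higher and 13.5% lower of all tested genes, and DESeq2 and limma-voom called 0. In FPKM 5 of the 9 were below the Ad-EGFP libraries without overlap, and 0 were above. Over all tested genes such separation occurred in 21.9% below and in 10.9% above. The most abundant, the peroxisomal fatty acid transporter Abcd3, stood at 89.96 to 101 FPKM against 99.8 to 118, a log2 fold change of -0.06 ± 0.11 (adjusted p = 0.766, edgeR) that turned to 0.0073 without Ad-EGFP library 2. Abcb6, a porphyrin transporter, had a log2 fold change of 0.06 ± 0.10 from the counts (adjusted p = 0.748, edgeR) and -0.18 on the log2(FPKM + 1) scale. Of the 50-base windows of Abcb6, 88.9% also occur in the gene Gm29253, so reads could have been split between them. The part of this in either value was not tested. The 4 soluble genes, which work in ribosome recycling and translation, had a median of 0.07, with 1 higher at an unadjusted p under 0.05 and 0 called by DESeq2 or limma-voom. The ribosome recycling factor Abce1 had a log2 fold change of 0.21 ± 0.10 (adjusted p = 0.172, edgeR), and Abcf1 had -0.06 ± 0.10 (0.716).

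**Figure D4:**
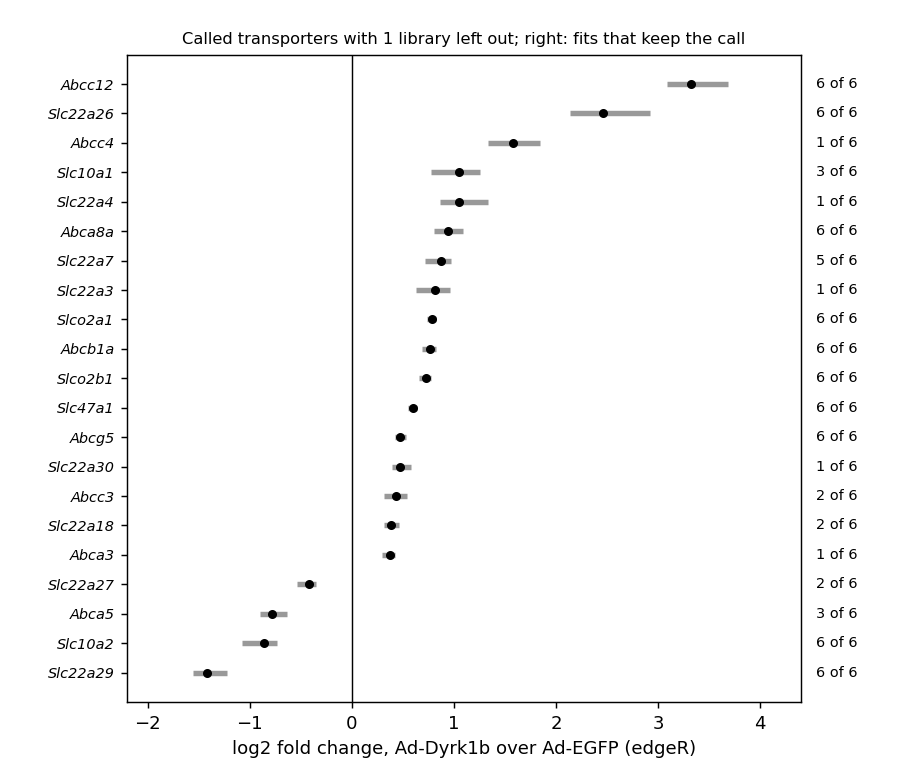
Log2 fold change (horizontal axis, Ad-Dyrk1b over Ad-EGFP, edgeR) of 21 of the 22 called transporters, with points for all 6 libraries and grey bars for the range over the 6 fits that leave out 1 library. Numbers at right count how many of the 6 fits keep the call. Of the 21 genes drawn, 10 kept it in all 6, and no bar crosses 0. Abcc12 has the highest value (3.33) and Slc22a29 the lowest (-1.42).

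Partners of the transporters and their known regulators were read from a list of 26 genes, of which all were tested, 2 were higher and 1 was lower. This called share was near the 12.2% of all tested genes (7.36% higher, 4.81% lower). The median log2 fold change of the 26 was 0.05. Slc51b, a subunit of the basolateral bile acid exporter, stood at 31.7, 19.4 and 23.7 FPKM against 14.6, 9.59 and 16.7. The groups were apart, with a log2 fold change of 0.95 ± 0.22 (adjusted p = 0.0164, edgeR), and the call was lost without Ad-Dyrk1b library 1 (0.0572). Its partner subunit Slc51a was barely detected and had -0.66 ± 0.52 (adjusted p = 0.439, edgeR). Nr0b2, the repressor that acts downstream of the bile acid receptor, stood at 75.2, 52.0 and 49.99 FPKM against 39.0, 35.7 and 35.8, apart. Its log2 fold change was 0.76 ± 0.13 (adjusted p = 0.00336, edgeR), and the call held in all 6 fits. The growth hormone receptor Ghr stood at 52.7, 53.8 and 62.9 FPKM against 75.1, 71.5 and 68.0, apart, with a log2 fold change of -0.51 ± 0.11 (adjusted p = 0.0132, edgeR). The Ghr call was lost without Ad-Dyrk1b library 1 (0.0515) or Ad-EGFP library 1 (0.0639), and with limma on log2(FPKM + 1) (0.0802). None of the following 4 regulators was called. The bile acid receptor Nr1h4 had a log2 fold change of -0.10 ± 0.12 (adjusted p = 0.63, edgeR), the drug sensors Nr1i2 and Nr1i3 had -0.04 ± 0.10 (0.84) and 0.11 ± 0.13 (0.629), and the oxidative stress regulator Nfe2l2 had -0.00209 ± 0.11 (0.993). All 4 changed sign under at least 1 alternative.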

How the data were processed

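RNA of 3 Ad-Dyrk1b and 3 Ad-EGFP liver samples was enriched for mRNA and sequenced, per the labels' protocols. Build mm10 and the tool DESeq2, without a version, are named in the submitters' processing notes. The aligner, counting tool, strand setting and annotation were not given in the sources used here. The deposited values were raw counts (whole numbers, not normalized) and FPKM made by the authors, per the file headers. They also included the authors' deposited log2 ratio of mean FPKM, p-value and adjusted p-value. Groups came from the treatment label and columns from their names.

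Counts were fitted in edgeR 4.0.16 (R 4.3.3) with TMM factors, filterByExpr (minimum count 10, minimum total 15), robust dispersion estimates and the two-sided quasi-likelihood F-test. Benjamini-Hochberg adjustment ran over the 13201 genes that passed the filter. Values after ± are standard errors for log2 fold changes and SDs for FPKM. The fitting code was also run on simulated counts, which checks the code and not the calls made here. Alternatives were DESeq2 1.42.0, limma-voom (limma 3.58.1), RLE factors, no low-count filter, limma-trend on log2(FPKM + 1) and log2(FPKM + 0.1), a replicate block, and leaving out each library.

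Named were every called transporter, every tested uptake, canalicular and basolateral gene, the 2 most abundant tested genes of each other class, called partners and 6 partners fixed by name, and Dyrk1b. Of this set 1 transporter is not reported here by name or in the figures, but stays in the counts and sums. The members, classes, marker lists and tests were chosen with earlier results of these data known. All 100 transporters were found in GENCODE M21 (mm10), which gave coordinates, coding sequences and the 50-base windows. Total counts ranged from 17326516 to 20024888 per library, and counts are printed for Abcc12, Slc22a26 and Slco1a1.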

Additional observations from a re-analysis of the deposited data

How the results depend on the processing

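Over the 6 fits without 1 library, all genes gave 612 to 800 higher calls (972 with all libraries) and 294 to 461 lower (635). Transporters gave 9 to 15 higher calls and 2 to 5 lower, uptake 2 to 5 higher, canalicular export 3 to 5 higher, and basolateral export 0 to 2 higher and 0 to 1 lower. On the FPKM scales all genes gave 566 (pseudocount 1) and 569 (0.1) higher calls, and basolateral export gave 1 with either, as it did without the low-count filter. DESeq2 called 5 canalicular genes. Among the named genes, signs turned only in some that were not called. Over the fits without 1 library Abca1 ranged from -0.23 to 0.061, Slc22a5 from -0.20 to 0.25, Abcd3 from -0.13 to 0.0073, Nr1h4 from -0.18 to 0.022, Nr1i2 from -0.096 to 0.012, Nr1i3 from -0.053 to 0.19 and Nfe2l2 from -0.095 to 0.049. The FPKM scales gave Slc22a5 -0.066 and -0.072 and Abcb6 -0.18 and -0.19, and Nfe2l2 was 0.0014 with DESeq2 and 0.0040 with RLE factors. The median over all tested genes was -0.0636 (pseudocount 1) and -0.0825 (0.1) on the FPKM scales, against -0.00498 in the main fit. The cause of the sign turns was not tested. The log2(FPKM + 1) scale also gave smaller values for called genes of low level: Slc22a3 0.43, Slc22a7 0.55, Slc22a4 0.46, Slc22a26 1.53, Abcc12 0.97 and Abca5 -0.44.

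Same-numbered libraries deviated from their group means with correlations of 0.0245, 0.172 and 0.108 over genes, not all above 0.1. Ad-Dyrk1b libraries 2 and 3 each correlated best with the Ad-EGFP library of the same number, and library 1 with Ad-EGFP library 3 (0.0845). The labels do not say that the numbers pair the samples, so the block was only an alternative. These correlations do not settle whether the samples were paired. With the replicate number as a block there were 1109 higher and 774 lower calls over all genes and 17 and 4 among transporters. Uptake kept a count of 5, canalicular export had 4 with Abcb4 added (0.0238), and basolateral export had 2, while Slc22a4 (0.0533) and Slc22a18 (0.059) were no longer called.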

Other observations

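For 6 of 62 tested transporters that could be compared, the ratio of deposited counts to deposited FPKM differed between the groups by more than 0.1 on the log2 scale, against 7.2% of 11826 genes. They were Abcb1b (-0.23, Ad-Dyrk1b minus Ad-EGFP), Abcc6 (-0.15), Slc22a15 (-0.14), Slc22a7 (0.12), Abcc2 (0.12) and Abcb6 (0.16), and for these the count test and the FPKM values are not the same measurement. Slc22a15 was chosen for mention after its values were seen.

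In the authors' deposited table, 23 of the tested transporters had an adjusted p under 0.05, of which 19 had a log2 ratio above 0 and 4 below. There were 21 genes among both those and the 22 called by edgeR. Slc22a4 was called by edgeR only, and Abcb4 and Abcb11 stood in the authors' table only.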
